A study of Mus musculus with 22 samples.

Results

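The homeostatic microglia genes described here are P2ry12, P2ry13, Gpr34, Cx3cr1, Selplg, Siglech, Fcrls, Tmem119, Olfml3 and Slc2a5, chosen by name as 10 of the 13685 genes of the count table. They were read in the microglia of mouse hippocampus, in single cells captured by Drop-seq, a droplet method that tags each messenger RNA with the barcode of its cell and a molecular identifier before sequencing its 3′ end. The 22 animals, all of the mixed strain Fvb/B6, fell into 6 groups by genotype and age. rTg4510 mice carry a human tau transgene with the P301L mutation behind a tetracycline operator, and a transactivator, rTta, that switches it on under the Camk2a promoter in forebrain neurons and not in microglia. The groups were 5 old WT animals of 32 to 40 weeks, 4 old rTg4510 animals of 32 to 38 weeks, 4 young WT animals of 5 to 6 weeks, 3 young rTg4510 animals of 4 to 5 weeks, 3 old animals labelled P301L of 41 to 48 weeks and 3 old animals labelled rTta of 33 weeks. The last 2 genotypes each bear the name of 1 transgene alone, and the WT animals carry neither. The submitters' design text gives younger ages for the young groups than the sample labels do, and the labels' ages are used here.

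Microglia are the resident macrophages of the brain. In the healthy adult brain they keep up a set of genes, dependent on signals from neighbouring cells such as transforming growth factor beta, that separates them from other macrophages and encodes mainly surface receptors with which fine processes survey the tissue. In neurodegeneration and after injury this set is commonly seen to fall while genes of lipid handling and lysosomes rise.

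Microglia were defined by 13 marker genes that include no member, on clusters made without the members. They came to 2883 of 27198 cells with at least 300 counts, 22 to 374 per animal, in 2 clusters. All 13 markers were past 2-fold in both clusters. Cluster 14, of 1286 cells, was led by the cytokine genes Ccl4, Ccl3 and Il1b and by Cd83, and cluster 15 held the other 1597 cells. Total counts per animal over all cells ran from 780831 to 6039656. The library of old P301L replicate 3 and that of old rTta replicate 3 shared 184 cell barcodes, 18 of them microglia in both, and cells with the same barcode had a median correlation of 0.83 against 0.16 for neighbouring barcodes. Levels and shares are printed with the shared cells. Without them the members called in rTta against old WT, in old rTg4510 against P301L and against rTta, and between P301L and rTta were the same, and P301L against old WT gained Tmem119; values that moved most are given beside the results. P301L and rTta animals bear letters in their labels and the other animals bear numbers; 270 genes were listed for numbered animals alone and 801 for lettered animals alone, so this division of the table and those 2 genotypes cannot be told apart. All 10 members were listed for both. Levels are CPM, counts scaled to the same total in every animal, over all microglial counts of an animal in the 12614 genes of both parts, given in order of replicate number (a number that only names an animal). Changes are log2 differences with their standard errors from edgeR's quasi-likelihood test on counts summed per animal, with p-values adjusted over all 4323 genes tested and a threshold of 0.05. All 10 members passed the filter on low counts, and the p-values measure the spread between these animals.

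The members were microglial among the cell classes named here. Border macrophages and blood leukocytes formed no class of their own, so the members could not be compared with them. In astrocytes, endothelial cells, oligodendrocytes, their precursors, mural cells, fibroblasts and neurons, the median level of the members was 0.351% to 1.08% of that in microglia, and the microglial markers stood at 0.538% to 1.98%. The exception was Olfml3 in fibroblasts, at 20.2% of its microglial level. After each cell was thinned to 500 counts, P2ry12 had a count in 59.8% of microglia, 0.500% of excitatory neurons and 0.538% of oligodendrocytes, as means over 22 animals. Before thinning the median depths were 1060 counts in microglia, 1503 in excitatory neurons and 1585 in oligodendrocytes.

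**Figure D1:**
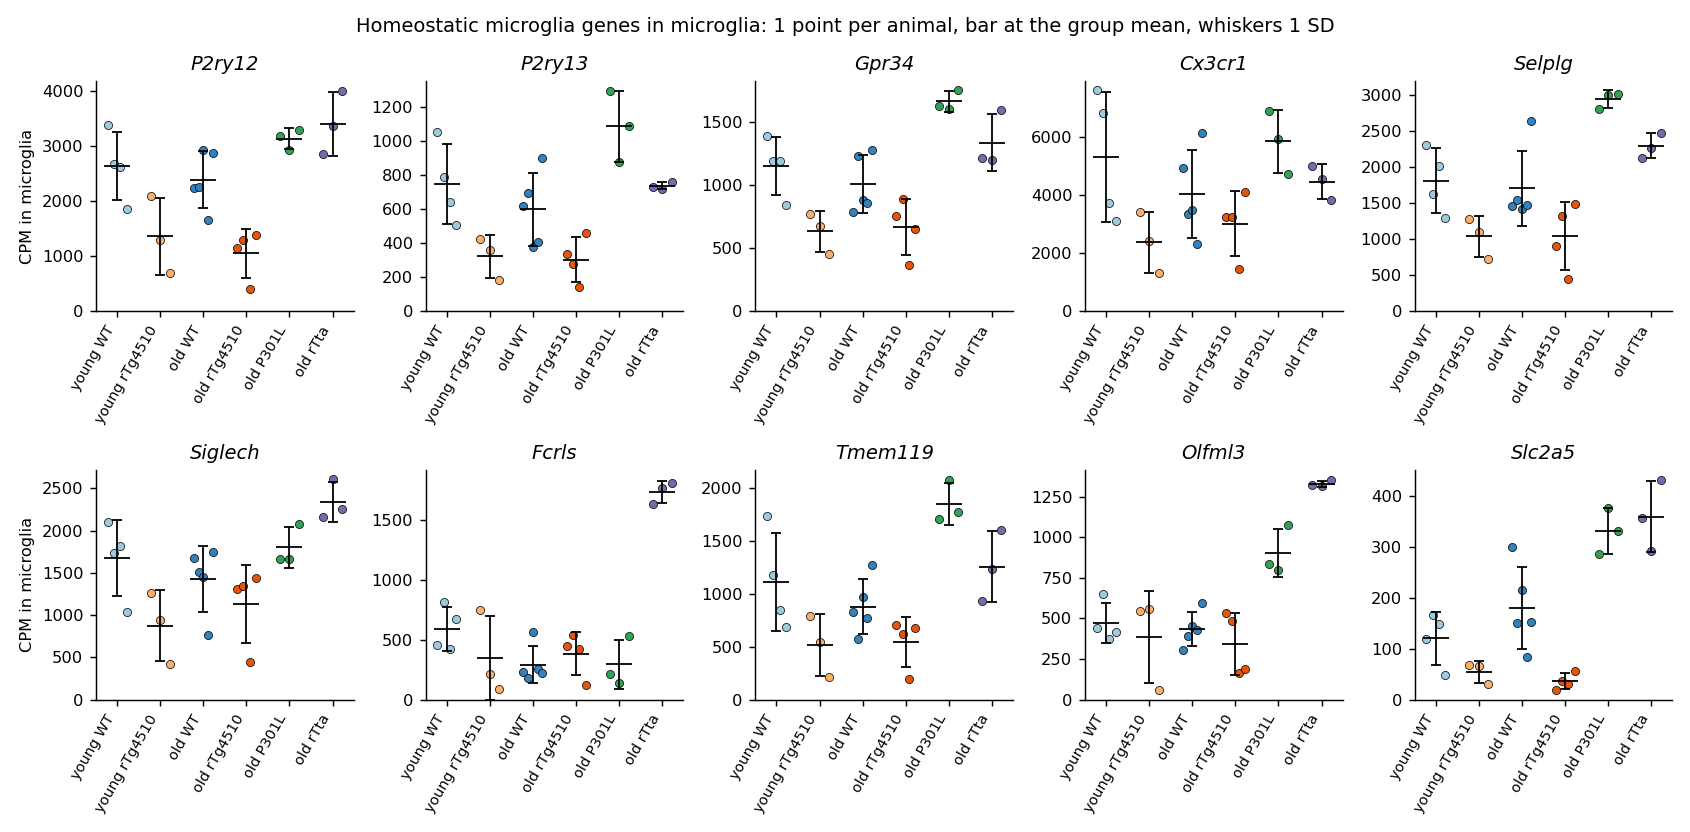
Level of each homeostatic gene in the microglia of every animal (CPM, linear axis from 0), with 1 panel per gene and the 6 groups along the horizontal axis; points are animals and bars are the group mean and SD. In 9 of the 10 panels an rTg4510 group has the lowest mean, and Fcrls stands apart with all 3 rTta animals at 1629 CPM or more.

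Among the receptors for nucleotides and lipids, P2ry12 encodes the ADP receptor that draws microglial processes towards injured cells. Its gene lies on the minus strand of chromosome 3 at 59216272 to 59262871 (GRCm38, GENCODE vM21), beside P2ry13 and inside Med12l, which runs on the opposite strand and is also in the table. The counts of such overlapping genes are uncertain where strand was not used in counting. In old WT microglia P2ry12 stood at 2233, 2257, 2918, 1654 and 2868 CPM, and in old rTg4510 at 1139, 1288, 395 and 1372. Every old rTg4510 animal was below every old WT animal. In young WT it was 3377, 2671, 2620 and 1858 CPM, and in young rTg4510 it was 2091, 1287 and 694. The highest young rTg4510 animal overlapped the lowest young WT animal. P301L animals had 3174, 2929 and 3287 CPM and rTta animals 2841, 3355 and 3994, both above the mean of old WT. The order of the group means was rTta, P301L, young WT, old WT, young rTg4510 and old rTg4510, and each group overlapped the next.

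P2ry13, on the same strand 5389 bases from P2ry12, encodes a second ADP receptor. It stood at 615, 692, 375, 406 and 896 CPM in old WT and at 332, 275, 142 and 457 in old rTg4510. Young WT had 1052, 787, 639.6 and 503 CPM against 424, 358 and 181 in young rTg4510, with no overlap. P301L had 1293, 875 and 1085 CPM and rTta 730.0, 717 and 760.4, so the rTta animals lay within the range of the old WT animals. Gpr34, the lysophosphatidylserine receptor, is on the X chromosome at 13632089 to 13640858 inside Cask, which runs on the opposite strand. Its level was 784 to 1282 CPM in old WT and 365 to 891 in old rTg4510, which overlapped. In young WT it was 839 to 1392 CPM and in young rTg4510 452 to 770.5, which did not overlap. P301L, at 1605 to 1757 CPM, stood above all animals of the other 5 groups for Gpr34.

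Cx3cr1, the receptor for the neuronal chemokine fractalkine, varied widely within groups. Old WT ranged from 2293 to 6150 CPM and old rTg4510 from 1438 to 4107, with overlap. Young WT ranged from 3093 to 7613 CPM and young rTg4510 from 1297 to 3402, again with overlap. P301L animals had 6884, 5940 and 4724 CPM, and rTta animals 5013, 4544 and 3810. Its annotated gene at 119901616 to 120069879 of chromosome 9 spans several other genes of the table, so its counts carry the same uncertainty.

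Of the surface molecules of adhesion and immune recognition, Selplg encodes the P-selectin ligand PSGL-1, and its gene lies 18019 bases from Tmem119 on chromosome 5. Selplg stood at 1460, 1535, 1419, 1466 and 2634 CPM in old WT and at 901, 1320.1, 440.4 and 1490.5 in old rTg4510, where 1 animal reached into the WT range. In young WT it was 1295 to 2310.5 CPM and in young rTg4510 724 to 1275, with no overlap. The P301L animals, at 2799.9, 3000.5 and 3018 CPM, were above the highest of every other group. Siglech encodes a sialic acid binding lectin that signals through the adaptor Tyrobp. It ranged from 759 to 1751 CPM in old WT and from 446 to 1434 in old rTg4510, and the rTta animals, at 2159.7, 2611 and 2258 CPM, were the highest group.

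Fcrls encodes an Fc receptor-like scavenger protein. The promoters of 3 members are shown here for comparison: that of Fcrls, called in rTta against old WT and between P301L and rTta, that of Slc2a5, the member that fell in old rTg4510, and that of P2ry12, the member next to it (RefSeq, GRCm38.p6, 250 bases before to 50 after the start site, 5′ to 3′ on each gene's strand, in lower case). Capitals mark the letters GAGGAA, a sequence that the myeloid factor PU.1 is known to bind, searched on both strands as GAGGAA or TTCCTC. It overlaps no other motif searched. Slc2a5 is at chr4:150119094-150119393 on the plus strand, Fcrls at chr3:87263475-87263774 and P2ry12 at chr3:59262936-59263235, both on the minus strand.
Slc2a5: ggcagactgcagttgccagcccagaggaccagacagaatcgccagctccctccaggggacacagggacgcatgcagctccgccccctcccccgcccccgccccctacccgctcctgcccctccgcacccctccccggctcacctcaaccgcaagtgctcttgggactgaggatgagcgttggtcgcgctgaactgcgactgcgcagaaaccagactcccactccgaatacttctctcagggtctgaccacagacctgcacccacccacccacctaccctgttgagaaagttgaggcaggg
Fcrls: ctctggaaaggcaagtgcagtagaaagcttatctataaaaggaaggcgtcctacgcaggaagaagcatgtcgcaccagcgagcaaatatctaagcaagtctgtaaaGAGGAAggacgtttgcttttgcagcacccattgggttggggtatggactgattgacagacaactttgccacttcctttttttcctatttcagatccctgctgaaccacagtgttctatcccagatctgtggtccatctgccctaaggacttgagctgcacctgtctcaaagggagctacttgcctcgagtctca
P2ry12: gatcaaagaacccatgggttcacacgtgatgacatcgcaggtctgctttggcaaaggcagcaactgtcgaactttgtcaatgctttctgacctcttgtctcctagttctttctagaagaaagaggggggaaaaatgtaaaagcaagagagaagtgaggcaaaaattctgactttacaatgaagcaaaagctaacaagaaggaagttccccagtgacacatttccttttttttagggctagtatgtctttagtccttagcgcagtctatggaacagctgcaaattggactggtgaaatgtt
Promoters of 7 of the 10 members were found in the table, and 3 of the 7, those of P2ry13, Fcrls and Siglech, held these letters. Of all 32851 promoters of the same length, 9289, or 28.3%, held them. In Fcrls the match began 144 bases before the start site, and the windows of Slc2a5 and P2ry12 held neither GAGGAA nor TTCCTC. Shorter matches were not marked, and binding of PU.1 was not tested.

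The order of the group means for Fcrls was rTta, young WT, old rTg4510, young rTg4510, P301L and old WT, and no other member had an rTg4510 group above old WT. In old WT it stood at 231, 181, 562, 256 and 221 CPM and in old rTg4510 at 450.4, 537, 420.2 and 123. Young WT had 459, 809.6, 424 and 671 CPM, and young rTg4510 748, 212 and 90.5, where the lowest rests on 3 counts. The 3 rTta animals had 1629, 1765 and 1805 CPM, above all 19 other animals, and the P301L animals 214, 138 and 527. In P301L replicate 3, the library with shared cells, 35 of its 51 Fcrls counts came from the 18 microglia whose barcodes also occurred in rTta replicate 3. Without those cells its level was 216 CPM, like the other P301L animals, and that of rTta replicate 3 was 1864. Without them Siglech went from 2078 to 1649 CPM in P301L replicate 3 and from 2258 to 2056 in rTta replicate 3, the latter below young WT replicate 1, at 2103.

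Tmem119 encodes a membrane protein used as a microglial marker. It stood at 823, 572, 964, 767 and 1269 CPM in old WT and at 700, 619, 197 and 673 in old rTg4510, which overlapped. Young WT had 1733, 1180.4, 849 and 683 CPM and young rTg4510 793, 544 and 211. P301L, at 1703, 2076 and 1768 CPM, did not overlap the next group, rTta, at 929, 1235 and 1598. Olfml3 encodes a secreted olfactomedin-like protein. Old WT animals had 304, 391, 455, 428.5 and 593 CPM and old rTg4510 536, 482, 162 and 190, so that the first 2 rTg4510 animals were within the WT range and the last 2 below it. The rTta animals had 1321, 1319 and 1352 CPM and the P301L animals 838, 797 and 1075, and these groups overlapped neither each other nor any of the other 4.

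Slc2a5 encodes the fructose transporter GLUT5, which in the brain marks microglia. In old WT it stood at 299, 150.5, 214, 82.7 and 152 CPM and in old rTg4510 at 18.8, 37.2, 30.4 and 56.5, from 7, 27, 6 and 11 counts. All old rTg4510 animals were below all old WT animals. In young WT it was 118, 166, 148 and 47.9 CPM and in young rTg4510 67.6, 66.3 and 30.2, which overlapped. P301L animals had 285, 376 and 331 CPM and rTta animals 356, 291 and 430. Without the shared cells P301L replicate 3 had 203 CPM for Slc2a5 and rTta replicate 3 had 356.

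Old rTg4510 set against old WT addresses both transgenes together at the age of advanced tau pathology. Slc2a5 was the 1 member called, and it fell by 2.22 ± 0.37 on the log2 scale (edgeR, adjusted p = 0.000153), from 179.6 ± 81.3 (SD, n = 5) to 35.7 ± 15.8 CPM (SD, n = 4). Over all genes tested 0.625% were called lower. P2ry12 was the other member whose groups did not overlap, against 2.36% of all genes lower without overlap, and its change of -0.97 ± 0.32 did not pass the threshold (edgeR, adjusted p = 0.0962). P2ry13 changed by -0.79 ± 0.32, Selplg by -0.52 ± 0.31, Tmem119 by -0.48 ± 0.35 and Gpr34 by -0.37 ± 0.28 (log2 ± SE), with adjusted p from 0.208 to 0.619 by edgeR. Cx3cr1, Siglech and Olfml3 were nearer to 0, at -0.24 ± 0.34, -0.12 ± 0.32 and -0.08 ± 0.36, and Fcrls was the 1 member with a positive value, 0.68 ± 0.45. The median of the 10 members was -0.42, and that of all genes tested was -0.03.

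Other genes of the same cells moved beside the members. The 13 microglial markers summed to 29216 to 56324 CPM in old rTg4510 microglia against 22172 to 32944 in old WT, and 4 of them, Tyrobp, Ctss, C1qb and Trem2, rose with log2 changes of 1.43, 1.17, 1.06 and 1.03 (edgeR, adjusted p from 0.00114 to 0.0416). Markers of other cell types also differed: the neuron list summed to 2300 to 4449 CPM in old WT microglia and to 1062 to 3154 in old rTg4510, with all 7 of its genes counted in every animal. The oligodendrocyte list of 8 summed to 2327 to 6028 and 1499 to 3376 CPM. With totals, scaling and tests restricted to the 331 genes at least 4-fold higher in microglia than in other cells, a setting chosen after the data were seen, 6 members were lower in old rTg4510. These were Slc2a5 at -2.48, P2ry12 at -1.29, P2ry13 at -1.08, Selplg at -0.83, Tmem119 at -0.80 and Gpr34 at -0.66 (log2 change; edgeR, adjusted p from 1.34e-05 to 0.00852). In that setting 56 of the 331 genes were lower and 54 higher. With library totals alone as the scale, P2ry12 also fell, with a log2 change of -1.21 (edgeR, adjusted p = 0.0126), and the calls over all genes were 59 higher and 55 lower, where the main scaling gave 98 and 27. That scale moved the median of all genes by -0.22. How far other cells' RNA or the scale accounts for the members' levels was not tested.

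The numbers in the labels of WT and rTg4510 animals were split into 2 ranges within each age. Old animals of the first range were 37 to 40 weeks old and those of the second 32 to 35, so range and age cannot be told apart among them. Within the first range of animal numbers, 3 old WT and 2 old rTg4510 animals, Slc2a5 differed by -2.76 and P2ry12 by -0.69. Within the second range, 2 against 2, the values were -1.27 and -1.25, and no gene was called. Olfml3 had opposite signs in the 2 ranges, 0.79 and -1.44. With a term for the range in the fit, the change of Slc2a5 was -2.19 ± 0.40 (edgeR, adjusted p = 0.000633).

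The young comparison asks whether the difference is present at 4 to 6 weeks. No member was called by edgeR, and all 10 had negative values with a median of -0.99, where that of all genes was -0.06. Of all genes 0.0231% were called, 1 gene. At an unadjusted p under 0.05 stood 8 of the 10 members and 539 of the 4323 genes. DESeq2 called P2ry13 and Cx3cr1, with an adjusted p of 0.048 each. Over the alternatives to the reported fit, DESeq2 among them, calls over all genes ran from 0 to 32. By edgeR the values were -1.23 ± 0.40 for Cx3cr1 (adjusted p = 0.219) and -1.20 ± 0.37 for P2ry13 (adjusted p = 0.214). Tmem119, Slc2a5, P2ry12, Siglech, Gpr34 and Selplg lay between -1.09 and -0.88, with SEs of 0.33 to 0.47. Fcrls, at -0.61 ± 0.50, and Olfml3, at -0.22 ± 0.42, were nearest to 0. The groups of P2ry13, Selplg and Gpr34 did not overlap, 3 of 10 members, and 4.86% of all genes were lower without overlap. Young rTg4510 replicate 3 gave 22 microglia and the lowest level of all 10 members among young animals. The 13 microglial markers were also lowest there, at 14750 CPM. They summed to 33104 and 30681 CPM in young rTg4510 replicates 1 and 2 and to 26143 to 33502 in young WT. The part of this in the members' levels was not tested. In young rTg4510 microglia the neuron list summed to 2731 to 5303 CPM against 1154 to 3041 in young WT, and the oligodendrocyte list to 3860 to 7707 against 1035 to 5373. On the 331 microglia-enriched genes the median of the members was -0.39, with no member called.

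**Figure D2:**
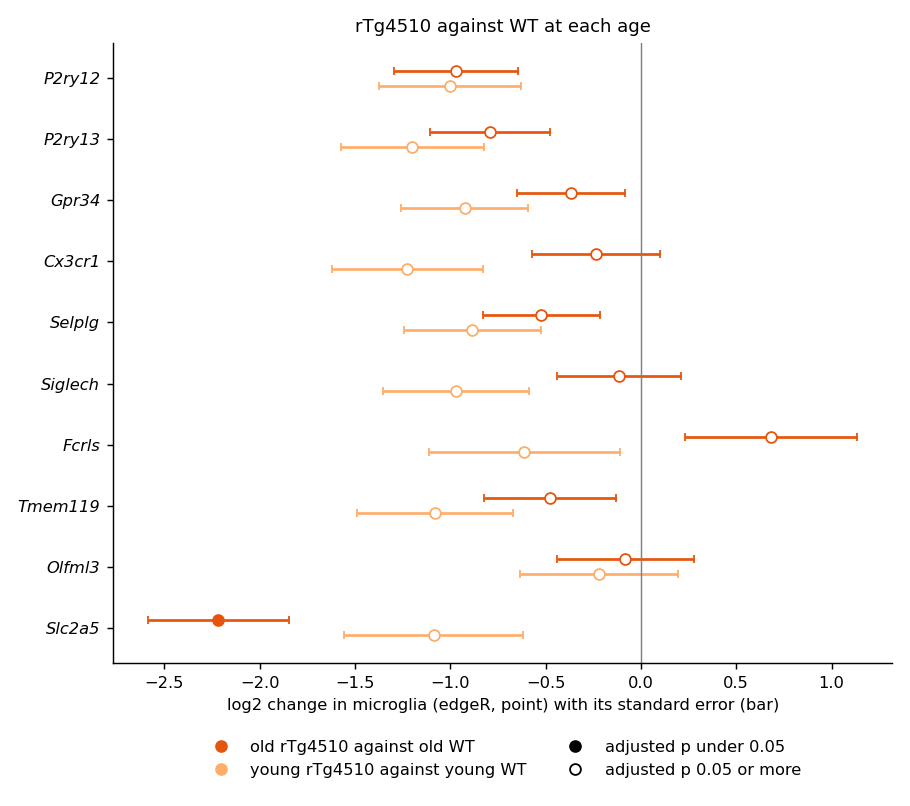
Log2 change (± SE) of the 10 homeostatic genes in rTg4510 against WT microglia, at the old age and at the young age; filled points have an edgeR adjusted p under 0.05. Slc2a5 at the old age, at -2.22, is the 1 filled point, and 9 of 10 old and 10 of 10 young values lie below 0.

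No member was called between the ages in the fit over all 4323 genes. Old against young WT gave 0 of 10 members, and 0.0% of all genes were called by edgeR, with 333 at an unadjusted p under 0.05 and 0 called by DESeq2. The median of the members was -0.29, and the most negative was Fcrls at -1.15 ± 0.46 (edgeR, adjusted p = 0.632). Old against young rTg4510 also called no member, against 0.74% of all genes, and the members ran from -0.63 ± 0.49 for Slc2a5 to 0.55 ± 0.38 for Siglech. On the 331 microglia-enriched genes every member was negative there, from -1.10 ± 0.47 for Slc2a5 to -0.13 ± 0.22 for Siglech. P2ry12 was called in that setting, at -0.87 ± 0.21 (edgeR, adjusted p = 0.014). The difference between the genotype effects at the 2 ages, tested as an interaction, called no member and 0.231% of all genes. It was -1.13 ± 0.60 for Slc2a5, 0.99 ± 0.51 for Cx3cr1 and 1.29 ± 0.67 for Fcrls, with edgeR adjusted p from 0.443 to 0.455. For P2ry12 it was 0.03 ± 0.49. These values moved with the scale: on the 331 microglia-enriched genes the interaction was -0.89 ± 0.28 for P2ry12, -1.81 ± 0.57 for Slc2a5 (edgeR, adjusted p = 0.148 for both) and 0.08 ± 0.30 for Cx3cr1. The median of the members for the interaction was -0.40 there and 0.48 in the fit over all 4323 genes. Neither fit called a member for the interaction. These comparisons share animals with the 2 above.

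The P301L and rTta animals were compared with the same 5 old WT animals. In P301L all 10 values were positive with a median of 0.86, none was called by edgeR, and 4.86% of all genes were called. At an unadjusted p under 0.05 stood 6 members and 940 of the 4323 genes, and DESeq2 called Tmem119 and Gpr34 in a fit with 62 genes higher and 141 lower of the 3314 given an adjusted p. The signs depended on the scale: on the 331 microglia-enriched genes the median was 0.19, and Fcrls, Siglech, P2ry12 and Cx3cr1 were at -0.56, -0.21, -0.17 and -0.02, with no member called. Without the shared cells Fcrls was at -0.48 ± 0.48, and Tmem119 was called at 1.16 ± 0.36 (edgeR, adjusted p = 0.0488). Tmem119 was nearest to the threshold at 1.16 ± 0.36 (edgeR, adjusted p = 0.0539). P2ry12, Tmem119, Olfml3, Selplg and Gpr34 were higher without overlap, 5 of 10 members against 5.25% of all genes. In rTta, Fcrls rose by 2.68 ± 0.47 (edgeR, adjusted p = 0.0019), from 290.1 ± 155 to 1733 ± 92.3 CPM, and Olfml3 by 1.67 ± 0.38 (edgeR, adjusted p = 0.016), from 434 ± 105 to 1331 ± 18.5 CPM. Over all genes 0.601% were called higher. With Siglech, these were the 3 members higher in every rTta animal than in any old WT animal, against 5.18% of all genes. Fcrls was called whichever animal was left out, and Olfml3 was not called without old WT replicate 4, rTta replicate 1 or rTta replicate 2. Without old WT replicate 5, 4 members were called in P301L, Olfml3, P2ry13, Selplg and Tmem119, in a fit with 63 genes called higher and 207 lower of 4294 tested. Without old WT replicate 1, Slc2a5 was called, in a fit with 49 genes higher and 160 lower. The microglial markers summed to 42454 to 52107 CPM in P301L and 43128 to 57663 in rTta, above every old WT animal, and the neuron list to 707 to 1209 and 1634 to 1800 CPM, below every old WT animal. The part of these values in the members' levels was not tested, and the division of the table cannot be told apart from these genotypes. The P301L animals, at 41 to 48 weeks, were also older than every old WT animal, at 32 to 40 weeks. Age and the P301L genotype therefore cannot be told apart.

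Against P301L, 7 members were lower in old rTg4510, where 3.79% of all genes were. The log2 change was -3.15 ± 0.37 for Slc2a5 (edgeR, adjusted p = 2.37e-07), -1.74 ± 0.34 for P2ry13, -1.64 ± 0.38 for Tmem119, -1.47 ± 0.36 for P2ry12, -1.40 ± 0.34 for Selplg, -1.24 ± 0.38 for Olfml3 and -1.21 ± 0.31 for Gpr34 (edgeR, adjusted p from 0.00193 to 0.0419). Cx3cr1, at -0.86 ± 0.38, and Siglech, at -0.55 ± 0.36, were not called although their groups did not overlap, and Fcrls was at 0.55 ± 0.50. In all, 9 members were lower without overlap, as were 14.1% of all genes. Against rTta, 4 members fell, where 1.27% of all genes did. These were Slc2a5 at -3.20 ± 0.37 (edgeR, adjusted p = 6.89e-08), Fcrls at -1.9995 ± 0.46, Olfml3 at -1.75 ± 0.38 and P2ry12 at -1.53 ± 0.36 (edgeR, adjusted p from 0.00551 to 0.0135). All members but Cx3cr1, 9 of 10, were lower without overlap, as were 12.7% of all genes. Both comparisons use the same 4 rTg4510 animals, and the neuron list, at 1062 to 3154 CPM in old rTg4510, was above every P301L animal in 3 of the 4. The P301L animals, at 41 to 48 weeks, were older than the old rTg4510 animals, at 32 to 38. Age and genotype cannot be told apart in that comparison. Without P301L replicate 1, or without P301L replicate 2, 3 members were called against P301L, and without rTta replicate 2, or without rTta replicate 3, 2 were called against rTta. Slc2a5 was among them each time. With library totals alone, calls over all genes split into 108 higher and 231 lower against P301L and 45 and 99 against rTta, where the main scaling gave 160 and 164, and 66 and 55.

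**Figure D3:**
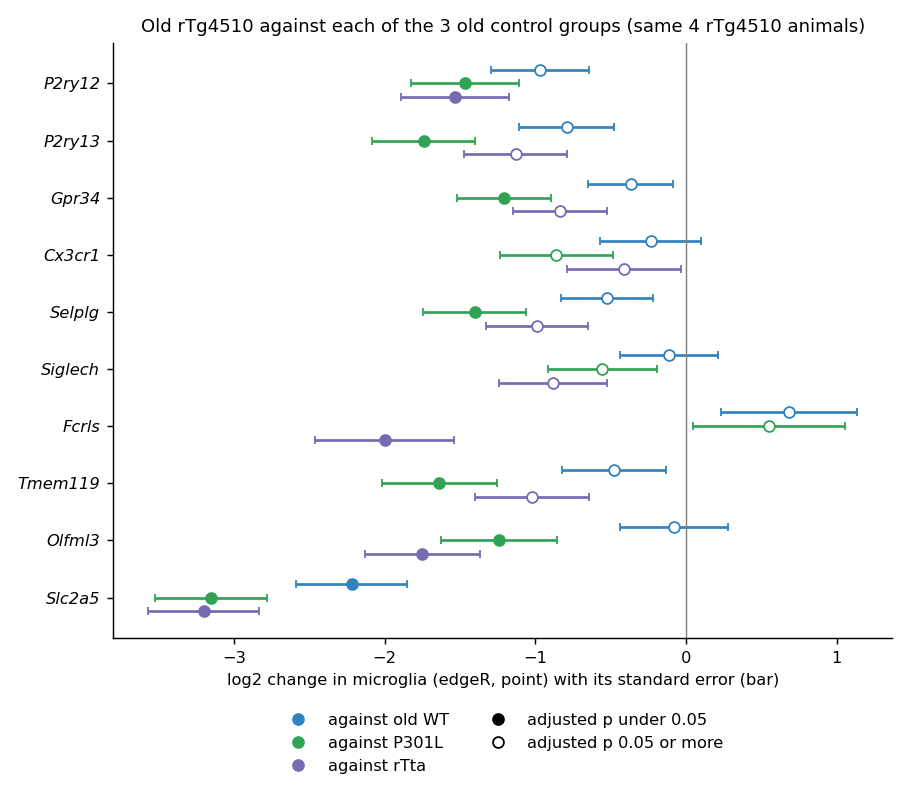
Log2 change (± SE) of each homeostatic gene in old rTg4510 microglia against the 3 other old groups, WT, P301L and rTta, with the same 4 rTg4510 animals in each; filled points have an edgeR adjusted p under 0.05. Slc2a5 is filled in all 3 comparisons, P2ry12 and Olfml3 in those with P301L and rTta. Fcrls is filled in that with rTta alone, and P2ry13, Tmem119, Selplg and Gpr34 in that with P301L alone.

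Fcrls was also the 1 member called between P301L and rTta, lower in P301L with a log2 change of -2.55 ± 0.54 (edgeR, adjusted p = 0.0208), against 0.278% of all genes. Without the shared cells it was -3.18 ± 0.50 (edgeR, adjusted p = 0.000179). With any 1 of the 6 animals other than P301L replicate 3 left out, its log2 change was -2.64 to -2.20 and was not called (edgeR, adjusted p from 0.0558 to 0.236). The P301L animals were 41 to 48 weeks old and the rTta animals 33, so age and genotype cannot be told apart here. Fcrls in rTta stood at 1787 ± 54.4 CPM in cluster 14 and 1661 ± 186 in cluster 15 (SD, n = 3). Slc2a5 was low in both clusters of old rTg4510, at 30.7 ± 23.6 and 41.0 ± 12.2 CPM (SD, n = 4), where old WT had 143 ± 86.6 and 222 ± 157 (SD, n = 3 animals with enough cells in each). P2ry12 had 987 ± 383 and 1139 ± 542 CPM in old rTg4510 and 2272 ± 337 and 2238 ± 826 in old WT.

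The members were also counted by cell, as the share of microglia with at least 1 count. With each cell thinned to 500 counts, P2ry12 had a count in 63.4% ± 7.36 of old WT microglia (SD, n = 5) and 36.8% ± 12.2 of old rTg4510 (SD, n = 4), with ranges of 53.5% to 70.4% and 18.5% to 44.1%. Slc2a5 had a count in 6.59% ± 3.03 and 2.28% ± 1.27, and Selplg in 56.3% ± 7.68 and 33.3% ± 13.8. The share of P2ry12 was 75.4% in P301L and 73.6% in rTta. Fcrls had a count in 51.5% ± 3.64 of rTta microglia (SD, n = 3) and 11.6% ± 6.73 of old WT. A cell of old WT held counts of 3.74 ± 0.53 of the 10 members on average, a cell of old rTg4510 of 2.80 ± 0.73, a P301L cell of 5.13 and an rTta cell of 5.21. Thinning left out 167 P301L and 64 rTta cells, 21 of old WT and 39 of old rTg4510. Unthinned, the old WT and old rTg4510 cells held 5.53 and 4.84 members.

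**Figure D4:**
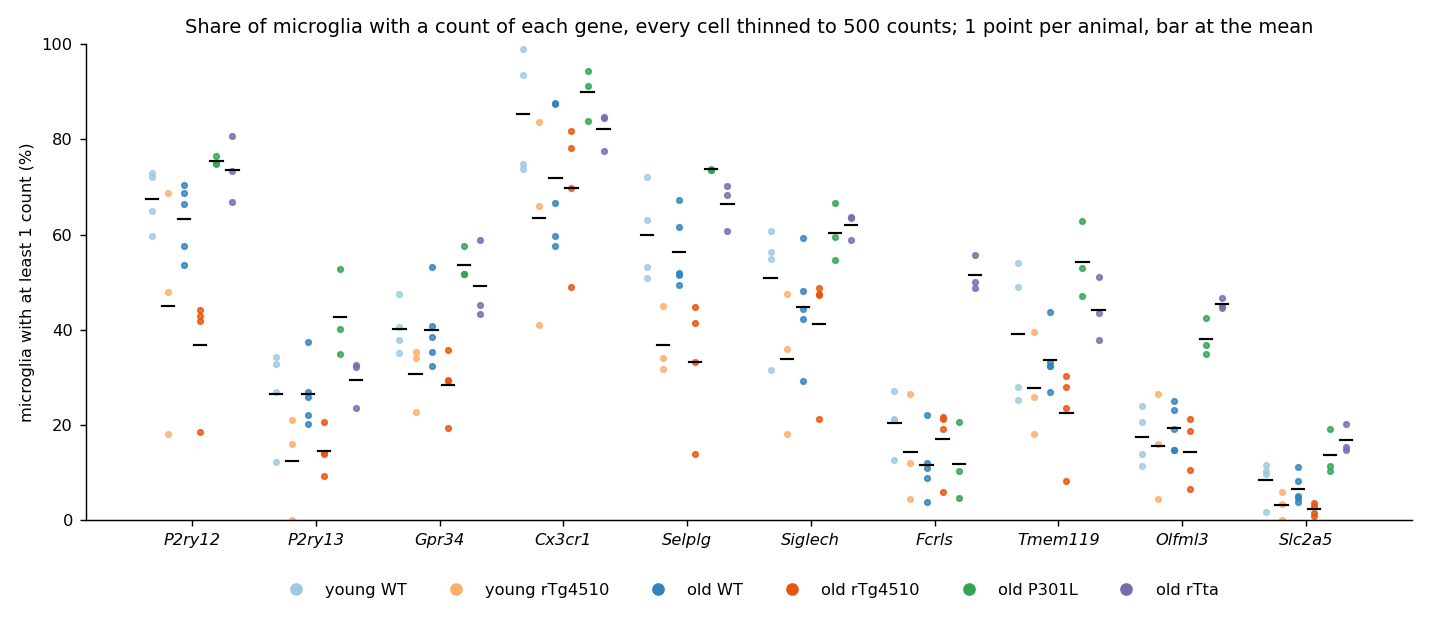
Share of microglia (percent) with at least 1 count of each homeostatic gene after thinning every cell to 500 counts, by group; points are animals and bars are group means. P2ry12 runs from a mean of 36.8% in old rTg4510 to 75.4% in P301L, and Fcrls is at 51.5% in rTta.

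Animals within a group varied together in most members. After each group's mean was removed, Pearson's r of log2 CPM over the 22 animals had a median of 0.71 over the 45 pairs of members, from 0.032 for Selplg and Fcrls to 0.94 for P2ry12 and Siglech. All values share the libraries, their depth and their scaling. Among 3806 other genes averaging at least 50 CPM, those most like P2ry12 were Tmem173 (0.94), Rnase4 (0.92) and Ikzf1 (0.90). Those most like Cx3cr1 were Maf, Itgam and Lair1 (each 0.94), and those most like Tmem119 were Sepp1 (0.92), Lgmn (0.92) and Laptm5 (0.91). For P2ry13 they were Marcks, Prkab1 and Actb (0.91 to 0.93), for Selplg Csf1r, Actb and Rnase4 (0.88 to 0.93) and for Gpr34 Cd53, Tmem173 and Csf1r (0.86 each). Olfml3 was most like Ctsf, C1qa and Vasp (0.86 to 0.89). Slc2a5, with Arid1a, Pik3ca and Rin2 (0.76 to 0.79), and Fcrls, with Klf2, Cstb and Dusp1 (0.70 to 0.78), had the lowest top values.

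The lists of related genes were drawn up from general knowledge of microglia, with earlier results of these data known. Of 21 further homeostatic genes, 19 were tested and none was called in rTg4510 against WT at either age, with medians of -0.05 old and -0.48 young. Of 20 genes of transforming growth factor beta signalling and microglial transcription factors, 14 were tested and none was called, with medians of -0.27 and -0.81. Of 12 purinergic genes 5 were tested, and P2rx4, an ATP-gated channel, rose in old rTg4510 by 2.00 ± 0.44 (edgeR, adjusted p = 0.00437) while none was called young. Of 12 hexose genes 7 were tested and none was called at either age. Of the members' ligands 2 of 5 were tested, and neither was called between the genotypes.

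Genes known to rise in disease-associated microglia were higher. Of 25, 18 were tested and 15 rose in old rTg4510, with a median of 1.60 where that of all genes was -0.03. Over all 4323 genes tested, 125 were called in either direction. Trem2 and Tyrobp, given above as microglial markers that rose, are also on this list. Lpl, lipoprotein lipase, rose by 3.29 ± 0.42, Apoe by 2.82 ± 0.38, Axl by 2.59 ± 0.45, Cd63 by 2.40 ± 0.31 and Cd9 by 1.88 ± 0.27 (edgeR, adjusted p from 2.61e-06 to 0.000268). Lgals3 had no count in any old WT animal and averaged 86.1 ± 21.3 CPM in old rTg4510. In young rTg4510 only Lpl was called of the 18, at 3.29 ± 0.50 (edgeR, adjusted p = 0.000297), and in old against young rTg4510 Axl, B2m, Ctsz and Cd9 rose, by 2.23, 1.60, 1.43 and 1.39 (edgeR, adjusted p from 0.0248 to 0.0264). Of 19 genes of dissociation and cytokine response 18 were tested, and Hspa1a, a heat shock gene, fell in old rTg4510 with a log2 change of -2.40 ± 0.64 (edgeR, adjusted p = 0.0499).

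Against the single lines the homeostatic lists also held lower genes. Against P301L, where 3.79% of all genes fell, 4 of 19 further homeostatic genes fell in old rTg4510, among them Crybb1 at -2.07, Ltc4s at -1.12 and Abi3 at -1.07 (log2 change). So did 4 of 14 growth factor and transcription factor genes, Maf at -1.64, Sall1 at -1.32, Cebpa at -1.29 and Tgfbr1 at -1.05. Of the hexose genes, Txnip and Hk2 fell, at -1.51 and -1.30, and Aldoc and Aldoa rose by 1.47 and 1.38 (edgeR, adjusted p from 0.000871 to 0.0494 over the genes named). Aldoc is also on the astrocyte list, which summed to 1999 to 6903 CPM in old rTg4510 microglia and 902 to 2613 in P301L. The part of astrocyte RNA in its rise was not tested. Against rTta, where 1.27% of all genes fell, Crybb1 and Ltc4s of the 19 further homeostatic genes fell, with log2 changes of -2.87 and -1.45. Maf, of the 14 growth factor and transcription factor genes, was at -1.71, and Txnip, of the hexose genes, at -1.79. P2rx4 rose by 1.72 (edgeR, adjusted p at most 0.0207 over these genes). Crybb1 was also higher than in old WT in both single lines, by 1.27 in P301L and 2.07 in rTta, and P301L was higher for Itgb5, Irf8 and P2rx4 by 0.99, 1.02 and 1.74 and lower for Cx3cl1, the ligand of Cx3cr1, at -2.62 (edgeR, adjusted p at most 0.0483). The neuron list was lower in P301L microglia too, at 707 to 1209 CPM against 2300 to 4449 in old WT. The part of neuronal RNA in the Cx3cl1 value was not tested. Of the cytokine response genes, Nfkbia, Tnf and Nfkbiz were lower in P301L than in old WT, at -1.96, -1.91 and -1.27, and Nfkbia and Tnf lower than in rTta, at -2.59 and -2.34 (edgeR, adjusted p at most 0.0364). Old rTg4510 had more of the same 3 than P301L, by 2.11, 2.11 and 1.35, and less Hspa1b and Hspa1a, with log2 changes of -3.34 and -2.91 (edgeR, adjusted p at most 0.0439). Of the disease-associated genes, Axl, Apoe, Ank and Cd63 were higher in old rTg4510 than in P301L, by 3.84, 2.90, 1.68 and 1.58, and than in rTta, by 4.35, 3.52, 1.58 and 1.67 (edgeR, adjusted p at most 0.00454). Lpl and Lgals3 were called in both as well, from 382 ± 33.3 and 86.1 ± 21.3 CPM in old rTg4510. Lpl averaged 1.85 ± 3.20 CPM in P301L and 31.9 ± 40.6 in rTta, and Lgals3 averaged 3.69 ± 6.39 CPM in P301L and had no count in rTta. Ctsd and Ctsz were higher in P301L than in old WT by 1.07 and 1.01, Lpl was lower there than its 45.6 ± 18.9 CPM in old WT, and Cd9 was higher in rTta by 1.09 (edgeR, adjusted p at most 0.0478).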

How the data were processed

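Cells of 22 hippocampi were counted by Drop-seq. The authors deposited 1 table of counts of molecular identifiers per gene and cell, whole numbers not normalized, for 30500 cells and 13685 genes. Per the submitters' processing notes, bcl2fastq 2.18.0.12 and STAR 2.2 were used with build mm10; a gene annotation, the use of strand and cell filters are not given in the sources used here. Each cell carries a barcode of 12 bases, and 219 barcodes occurred in at least 2 libraries.

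Cells with at least 300 counts (27198) were normalized, log-transformed and clustered in scanpy 1.11.5 on 2000 variable genes without the members (40 components, 15 neighbours, Leiden resolution 1), giving 24 clusters. Clusters were named from fixed markers; 1924 cells stayed unnamed, and a cluster of 102 cells with markers of several types was left out. No doublet caller was run: 125 microglia with more markers of another class were left out in an alternative. Genes of 1 part of the table held at most 0.880% of an animal's microglial counts and were not used for totals.

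Counts were summed per animal over its microglia and tested with edgeR 4.0.16 in R 4.3.3 (TMM scaling, filterByExpr, robust quasi-likelihood F test, 1 fit of 6 group means without covariates), with Benjamini-Hochberg adjustment over 4323 genes and a threshold of 0.05. The SE is the log2 change divided by the square root of F. The test was also run on simulated counts, with a spread that followed the trend over genes. The members' own fitted spread, a coefficient of variation between animals, was 27.1% to 43.6% against a median of 25.7% for all genes tested. No rate of recovery is given for the members. DESeq2 1.42.0, other scalings, filters, cell definitions and each animal left out were alternatives. CPM, shares of thinned cells and promoter letters are descriptions, without a test.

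The members and lists were chosen with earlier results of these data known. All members are named in each comparison. Of the other lists, called genes are named, at most 6 per list and comparison in order of size (1 is not reported here); beside each called member, and P2ry12, Tmem119 and Cx3cr1, the 3 genes most like it are named. Sequences are from RefSeq and places from GENCODE vM21.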

Additional observations from a re-analysis of the deposited data

Results flagged for a closer look

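In 4 of the 30 groups of 4 or 5 animals examined, 1 animal stood far from the others by Dixon's criterion, which chance meets in about 1 of 20 groups. Tmem119 in old rTg4510 replicate 3 was 197 CPM, where the other 3 animals had 619 to 700. Siglech in the same animal was 446 CPM against 1311 to 1434. The astrocyte list summed to 6903 CPM and the choroid plexus list to 1693 CPM in the microglia of that animal, the highest of its group, and their part in its low values was not tested. Selplg in old WT replicate 5 was 2634 CPM against 1419 to 1535 in the other 4. Fcrls in old WT replicate 3 was 562 CPM against 181 to 256, from 21 counts in 27 microglia.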

How the results depend on the processing

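No paired analysis was possible because the replicate numbers were given in order of the sample list and only name animals. Of 837 recomputed member changes over 34 results, 772 kept their direction and side of the threshold. Of the others, 34 lost the threshold, 12 gained it and 19 changed sign. The causes were not tested. The 34 results were all members in rTg4510 against WT at each age, and elsewhere only the called members. P301L against old WT, the comparisons of ages and the interaction, where no member was called, are therefore not in this tally. The fall of Slc2a5 in old rTg4510 held in 18 of 19 alternatives and with each animal left out (log2 -2.48 to -1.78), and was lost in the second range of animal numbers alone (-1.27). In old rTg4510 against WT, where 1 member was called, 2 were with library totals alone, with DESeq2, with microglia set by marker counts per cell, without cells with more markers of another class and in cluster 14 alone, 0 in the second range and 6 on genes enriched in microglia. DESeq2 called 2 in the young comparison, and the enriched genes gave 1, P2ry12, between old and young rTg4510. In P301L against WT, with 0 called, 2 were by DESeq2 and without a filter on low counts, 3 with only the groups compared, and 1 each with members among the clustering genes, without cells with more markers of another class, in cluster 15 and without shared cells; leaving out animals gave 0 to 4. In rTta against WT cluster 15 alone gave 1 and leaving out animals 1 to 3, where 2 were called. Against P301L leaving out animals gave 3 to 7, where 7 were called. Against rTta library totals alone gave 8, enriched genes 9 and leaving out animals 2 to 5, where 4 were called. Between P301L and rTta, with 1 called, cluster 15 alone gave 0 and leaving out animals 0 to 1. Cluster 14 alone left 1 young rTg4510 animal and gave no young comparison.

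Signs turned to positive in old rTg4510 in the first range alone for Tmem119 (0.046), Cx3cr1 (0.024), Olfml3 (0.79), Gpr34 (0.13) and Siglech (0.095). Without old rTg4510 replicate 3 they did for Cx3cr1 (0.013), Olfml3 (0.16) and Siglech (0.16), and without a filter for Olfml3 (0.13) and Siglech (0.088). Olfml3 also turned without old rTg4510 replicate 4 (0.12) and without old WT replicate 5 (0.06). In young animals Olfml3 turned in the first range (0.017), by marker counts per cell (0.32), without cells with more markers of another class (0.30), with at least 50 microglia (0.19), on enriched genes (0.28) and without young rTg4510 replicate 3 (0.18), and Fcrls in the first range (0.26). Over the fits that each omit 1 animal, the old change ran from -0.40 to 0.013 for Cx3cr1, -0.41 to 0.16 for Olfml3 and -0.31 to 0.16 for Siglech, and the young change of Olfml3 from -0.57 to 0.18.

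Calls over all genes moved more. Over the alternatives they ran from 0 to 331 in old rTg4510 against WT (125 in the reported fit), 0 to 32 in the young comparison (1), 0 to 27 between WT ages (0), 0 to 70 between rTg4510 ages (32), 0 to 24 for the interaction (10), 0 to 251 for P301L (210) and 21 to 145 for rTta (54). They were at least 117 against P301L (324), and ran from 53 to 148 against rTta (121) and from 5 to 102 between P301L and rTta (19). With 1 animal left out they ran from 29 to 270 for P301L and from 13 to 91 for rTta, each against old WT. For old rTg4510 they ran from 47 to 347 against P301L and from 47 to 131 against rTta. Between P301L and rTta they ran from 6 to 36. Depth limits Slc2a5 most, with 1 to 27 counts per rTg4510 animal, and counts of 3 or fewer carry little weight.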
